A study of Mus musculus with 24 samples.

Results

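The dystrophin glycoprotein complex was examined through 8 genes, taken as every probe whose platform symbol in upper case was DMD, UTRN, DAG1, SGCA, SGCB, SGCD, SNTB1 or DTNA. These were 13 of the 26423 probes of the array and 8 of its 17742 named genes. The rule used no measured value, but the members were chosen with earlier results of these data known. RNA of the tibialis anterior, a muscle of the lower leg, came from 8 mice aged 6 weeks on a mixed C57BL6/J;129S1/SvImJ background. The 4 control mice had the genotype Myf6 cre/+; Hira flox/+, and the 4 Hira CKO mice the genotype Myf6 cre/+; Hira flox/-. All 8 thus carried the Myf6 cre allele, whose recombinase acts in muscle fibres, and 1 floxed copy of Hira. Hira is the gene of a chaperone that places histone H3.3 into chromatin. By genotype, recombination leaves 1 intact copy of Hira in control fibres and none in those of Hira CKO. The null copy in Hira CKO was present in every cell type, so cells without recombinase also differed in Hira dose between the groups. Each mouse was measured on 3 arrays, which were averaged, and the mouse was the replicate.

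Dystrophin is a long rod that ties cortical actin inside a muscle fibre to a cluster of membrane proteins. Of these, dystroglycan grips laminin outside the fibre, the sarcoglycans stand beside dystroglycan, and syntrophins and dystrobrevin bind the end of dystrophin inside. Loss of dystrophin or of a sarcoglycan is known to cause muscular dystrophy, and utrophin, a close relative of dystrophin, can take its place in the complex and is found mainly at the neuromuscular junction in adult fibres.

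At the α-sarcoglycan gene Sgca 2 of 3 probes fell past the threshold in Hira CKO and the third differed by −0.23 log2. Its most changed probe, which had the largest change of the 13 member probes, fell to 0.509 of the control level. At Dag1, the dystroglycan gene, the 2 probes moved in opposite directions, from a fall of 0.83 log2 to a rise of 0.23 log2. Smaller falls passed at 1 of 2 probes of Sgcb, the β-sarcoglycan gene, and at 1 of 2 probes of Dtna, the α-dystrobrevin gene. The single probes of Dmd (dystrophin), Utrn (utrophin), Sgcd (δ-sarcoglycan) and Sntb1 (β1-syntrophin) did not pass. Changes are Hira CKO minus control on the scale log2(intensity + 16), the threshold was a limma adjusted p of 0.05 over all probes, and intensities are linear, without unit, and not comparable between probes.

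In all, 1 of 13 member probes was called higher, where 10.5% of all probes were, and 5 were called lower, where 10.0% of all probes were. The groups did not overlap at 7 of 13 member probes, against 24.8% of all probes. The median change was −0.23 log2 over the 13 probes and 0.01 log2 over all probes, and 9 member changes were below 0. These counts and the median depended on which probe stood for a gene. With the brightest probe of each of the 8 genes, 1 gene was called higher (Dag1) and 1 lower (Sgcb), where 11.0% and 10.3% of all named genes were. The median change over these 8 brightest probes was 0.09 log2, and 4 of the 8 changes were below 0. Without 1 mouse at a time the count of lower probes ranged from 3 to 4, and that of higher probes from 0 to 1. RNA of a whole muscle does not tell fewer cells of a type apart from less RNA per cell.

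**Figure D1:**
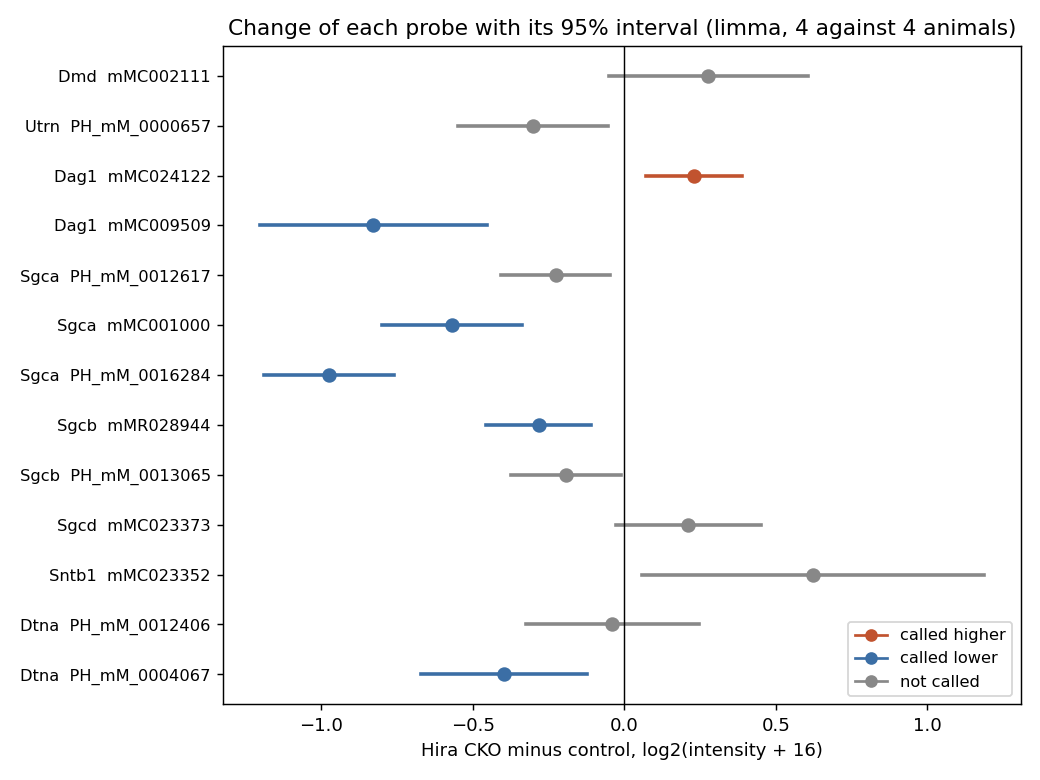
Change of each of the 13 probes, Hira CKO minus control in log2(intensity + 16), as points with the 95% interval of the limma fit over 4 and 4 mice as bars, coloured by call. The 3 Sgca probes lie at −0.97, −0.57 and −0.23, and the 2 Dag1 probes lie on opposite sides of 0.

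The DNA before the start site is shown for the sarcoglycan genes with a called fall (Sgca, Sgcb), for Dag1, whose probes disagreed, and for Dmd, which names the complex. The sequences are the 250 bases before the annotated start, from RefSeq on GRCm38.p6, where 6 of 8 members had an entry. For Dmd and Dag1, with 2 starts listed each, the upstream one was taken. They are written 5′ to 3′ on the strand of the gene. Capitals mark 3 motifs, searched on both strands: the E-box (CANNTG), the letters bound by MyoD and related factors, the CArG box, bound by serum response factor, and GGGCGG, bound by Sp1. No motif overlapped another. These intervals are chr11:94976328-94976577 on the minus strand for Sgca, chr5:73647738-73647987 on the minus strand for Sgcb, chr9:108263959-108264208 on the minus strand for Dag1, and chrX:82948620-82948869 on the plus strand for Dmd.
Sgca: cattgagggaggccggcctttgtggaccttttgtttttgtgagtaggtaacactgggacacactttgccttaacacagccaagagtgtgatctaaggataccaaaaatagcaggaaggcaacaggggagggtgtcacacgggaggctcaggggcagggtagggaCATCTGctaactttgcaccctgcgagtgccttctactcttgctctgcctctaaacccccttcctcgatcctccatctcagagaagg
Sgcb: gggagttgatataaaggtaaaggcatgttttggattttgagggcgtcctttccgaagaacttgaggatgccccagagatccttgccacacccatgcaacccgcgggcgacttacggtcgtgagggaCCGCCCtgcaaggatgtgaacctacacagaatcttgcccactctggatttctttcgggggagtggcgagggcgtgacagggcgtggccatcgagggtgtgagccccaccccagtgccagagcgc
Dag1: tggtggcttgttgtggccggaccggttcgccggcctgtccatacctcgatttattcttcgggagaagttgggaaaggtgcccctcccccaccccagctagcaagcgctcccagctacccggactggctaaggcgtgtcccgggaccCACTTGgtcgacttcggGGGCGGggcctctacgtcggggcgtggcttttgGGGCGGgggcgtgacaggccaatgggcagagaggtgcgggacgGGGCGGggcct
Dmd: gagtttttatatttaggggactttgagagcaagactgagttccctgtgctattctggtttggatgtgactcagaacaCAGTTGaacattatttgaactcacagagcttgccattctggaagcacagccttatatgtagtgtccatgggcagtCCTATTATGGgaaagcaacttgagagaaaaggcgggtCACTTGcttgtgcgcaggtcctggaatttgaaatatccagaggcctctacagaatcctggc

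The Sgca window held 1 E-box, beginning 86 bases before the start. The Sgcb window held 0 E-boxes and 1 GGGCGG, written on the other strand as CCGCCC. The Dag1 window held 1 E-box and 3 copies of GGGCGG. The Dmd window held 2 E-boxes and, beginning 98 bases before the start, 1 CArG box. Of 32851 RefSeq promoter windows of the same length, 66.2% held an E-box, 32.7% GGGCGG and 1.47% a CArG box. The windows of Sgca and Sgcb had no searched motif in common. The array did not measure binding, and the part of these motifs in the changes was not tested.

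Hira itself did not mark the groups at its probe. Its intensity lay between 467 and 569 in the 4 controls and between 524 and 614 in the 4 Hira CKO mice, a change of 0.17 log2 (limma adjusted p 0.193). Whether that probe reads the floxed region is not known here, so directions rest on the labels. Of the muscle fibre markers used as a check of the tissue, 7 of 12 were measured, and their lowest mean intensity was 148541, against array medians of 431.5 to 433.5. The cardiac markers Nppa, Nppb, Tnni3 and Tnnt2 summed to 1581 to 1980 in controls and 1633 to 1852 in Hira CKO.

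The sarcoglycans form a tight subcomplex in the fibre membrane, and α-sarcoglycan is its muscle-restricted subunit. At Sgca probe PH_mM_0016284 the control mice measured 5372, 6089, 6290 and 5358, and the Hira CKO mice 3107, 3176, 2935 and 2526. Every Hira CKO mouse was far below every control, and so was every single array, with the 12 control arrays at 4824 or more and the 12 Hira CKO arrays at 3333 or less. The change was −0.97 log2 (SE 0.096, 95% interval −1.19 to −0.76, limma adjusted p 0.000141, exact two-sided permutation p 0.0286, the smallest that 4 against 4 mice can give).

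At Sgca probe mMC001000 the controls measured 20528, 17849, 17653 and 15614, and the Hira CKO mice 13262, 11029, 13233 and 10898. The mice did not overlap, although the arrays did. The change was −0.57 log2 (SE 0.10, limma adjusted p 0.00461). The third probe, PH_mM_0012617, measured 23024, 22616, 21399 and 21114 in controls and 19547, 18593, 20621 and 16757 in Hira CKO. Here too all Hira CKO mice were below all controls, but the groups lay close together. Its difference of −0.23 log2 (SE 0.081, 95% interval −0.41 to −0.05) did not pass (limma adjusted p 0.0751). Both called probes of Sgca kept their call in all 8 fits that left out 1 mouse, and probe mMC001000 lost it with only the second array of each mouse (−0.45 log2, adjusted p 0.0594). With all 24 arrays and the mouse as a random block, the third probe passed as well (adjusted p 0.0138). That fit shares a single correlation between arrays of a mouse over all probes, so it is not relied on for a call.

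The 3 Sgca probes were also compared within each mouse. The log2 difference of probe PH_mM_0012617 over probe PH_mM_0016284 was 1.93 ± 0.14 in controls and 2.68 ± 0.11 in Hira CKO (SD, n = 4 mice each), a shift of 0.75 log2 with no overlap (exact two-sided permutation p 0.0286, 0.0571 after Benjamini-Hochberg adjustment over the 6 probe pairs of members). The shift between PH_mM_0012617 and mMC001000 was 0.34 log2 (the same exact permutation p and adjusted value), and that between mMC001000 and PH_mM_0016284 was 0.41 log2 (exact permutation p 0.0571, adjusted 0.0857). None of the 6 pairs passed after adjustment. With 4 against 4 mice the exact permutation p cannot fall under 0.0286. After adjustment over 6 pairs no pair could pass on its own, however wide its shift. The adjusted values thus do not decide whether the probes disagree. The sources used here do not say which transcripts or exons a probe reads.

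Of the fibre markers, 2 of 7 were also called lower and 0 higher (10.3% and 11.0% of all named genes). These were Acta1, the skeletal actin gene, by 0.55 log2 and Ckm, the muscle creatine kinase gene, by 0.28 log2. Acta1 kept its call in all 8 fits that left out 1 mouse, while Ckm did not pass in 6 of them. The summed intensity of the 7 markers was 1466360 to 1705060 in controls and 1386270 to 1474850 in Hira CKO, so it overlapped. The part of a general shift of fibre RNA in the Sgca values was not tested.

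β-Sarcoglycan belongs to the same unit as α-sarcoglycan. Sgcb probe mMR028944 measured 5152, 4684, 4589 and 4600 in controls and 4038, 3774, 4215 and 3613 in Hira CKO. The groups did not overlap. The change was −0.28 log2 (SE 0.078, limma adjusted p 0.0295). When mice were dropped in turn, the call held only without control mouse 4 or Hira CKO mouse 3, and the adjusted p reached 0.0788. The second Sgcb probe, PH_mM_0013065, measured 4965, 3955, 4426 and 4363 in controls and 4001, 3794, 3946 and 3729 in Hira CKO. Hira CKO mouse 1 lay just above control mouse 2, so the groups overlapped. Its change was −0.19 log2 (95% interval −0.37 to −0.01, limma adjusted p 0.125). The difference of the 2 Sgcb probes shifted by −0.09 log2, with overlap (exact permutation p 0.143, adjusted 0.171).

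δ-Sarcoglycan, which pairs closely with β-sarcoglycan, was read by 1 dim probe. Sgcd measured 103, 112, 78 and 118 in controls and 117, 118, 118 and 125 in Hira CKO, all below the array medians. Control mouse 3 was lowest, and control mouse 4 lay among the Hira CKO mice. The difference was 0.21 log2 (95% interval −0.03 to 0.45, limma adjusted p 0.188) and 0.11 log2 without control mouse 3. The pseudocount of 16 is a sizeable part of such values and shrinks the difference. Across the 3 sarcoglycan members, 3 of 6 probes were called lower (10.0% of all probes) and 0 higher (10.5% of all probes). The calls lay in 2 of the 3 genes, with 2 at Sgca and 1 at Sgcb. At the brightest probe of each member, 1 of the 3 genes (Sgcb) was called lower. Every sign of the 6 probes was the same in the other settings that kept the probe. The sarcoglycan genes Sgce and Sgcz, outside the members, were not called (limma adjusted p 0.362 and 0.565).

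**Figure D2:**
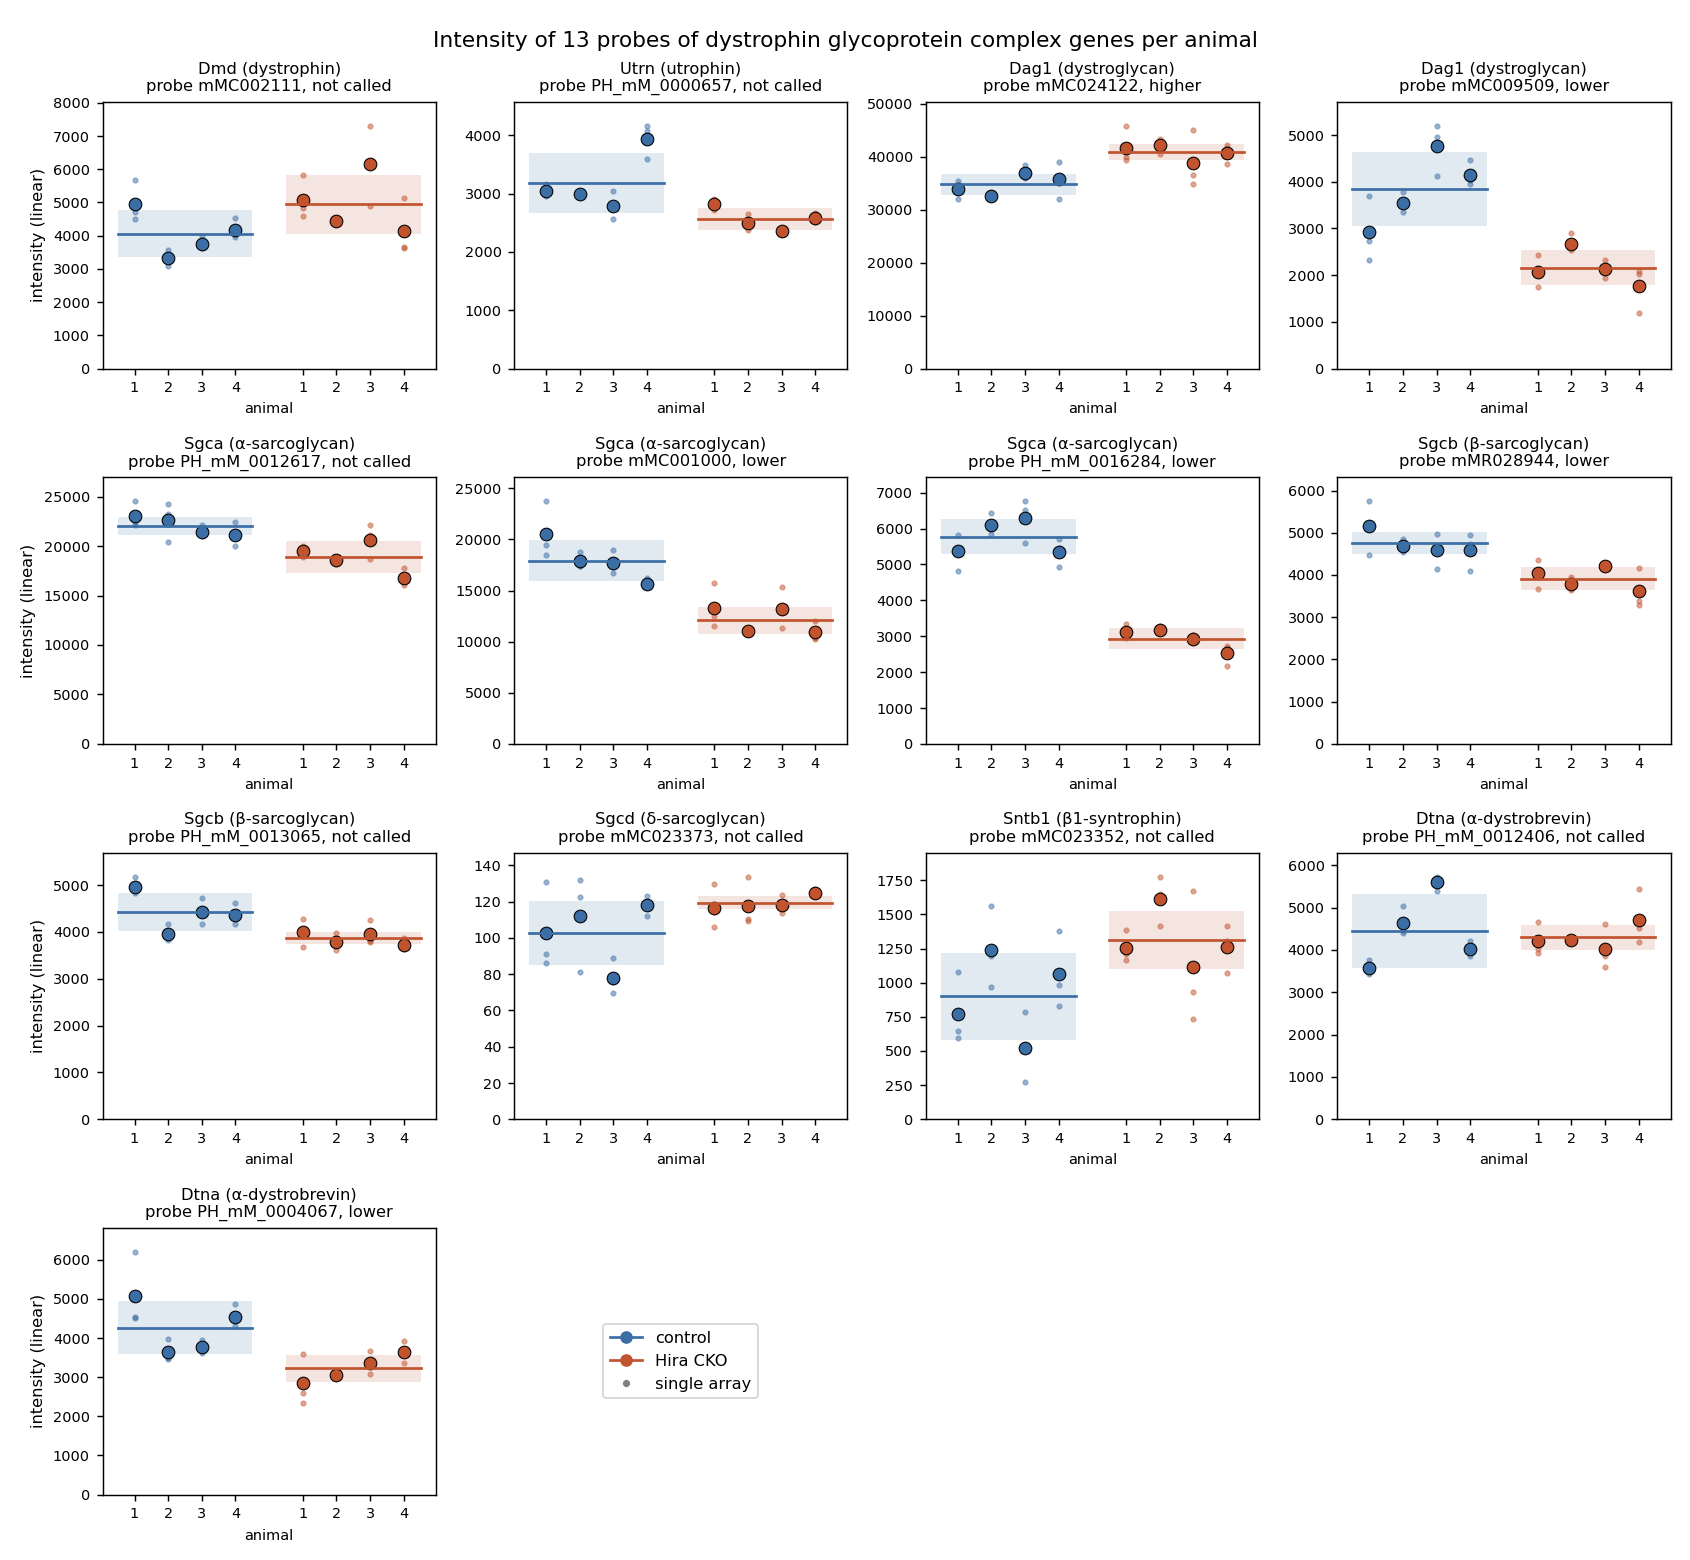
Linear intensity of each of the 13 probes (vertical axis from 0) in each mouse, with large points for the mean of 3 arrays, small points for single arrays, and a line and band for the mean and SD of 4 mice. The Sgca probe PH_mM_0016284 separates the groups widely, while the groups overlap at Dmd, Utrn, Sgcb probe PH_mM_0013065, Sgcd, Sntb1 and Dtna probe PH_mM_0012406.

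Dystroglycan is made as a single precursor and cut into an outer α part, which binds laminin through its sugar chains, and a β part, which crosses the membrane and binds dystrophin. Dag1 probe mMC009509 measured 2918, 3549, 4758 and 4154 in controls and 2068, 2676, 2122 and 1768 in Hira CKO. All Hira CKO mice were lower than all controls, and the controls spread widely. The change was −0.83 log2 (SE 0.17, 95% interval −1.20 to −0.45, limma adjusted p 0.00775), kept in all 8 fits that left out 1 mouse. Dag1 probe mMC024122 measured 33819, 32608, 36919 and 35777 in controls and 41683, 42184, 38793 and 40761 in Hira CKO. Here the Hira CKO mice were all higher. The change was 0.23 log2 (SE 0.071, 95% interval 0.07 to 0.39, limma adjusted p 0.0441). When mice were dropped in turn, that call held only without Hira CKO mouse 3, and the adjusted p reached 0.111. It was lost as well with a pseudocount of 1 (adjusted p 0.0558).

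The disagreement was itself measured within each mouse. The log2 difference of probe mMC024122 over probe mMC009509 was 3.20 ± 0.25 in controls and 4.26 ± 0.25 in Hira CKO (SD, n = 4 mice each). It ran from 2.96 to 3.55 in controls and from 3.97 to 4.56 in Hira CKO, with no overlap. The shift was 1.06 log2 (exact two-sided permutation p 0.0286, adjusted 0.0571 over 6 pairs), and no single direction can be given for the gene.

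**Figure D3:**
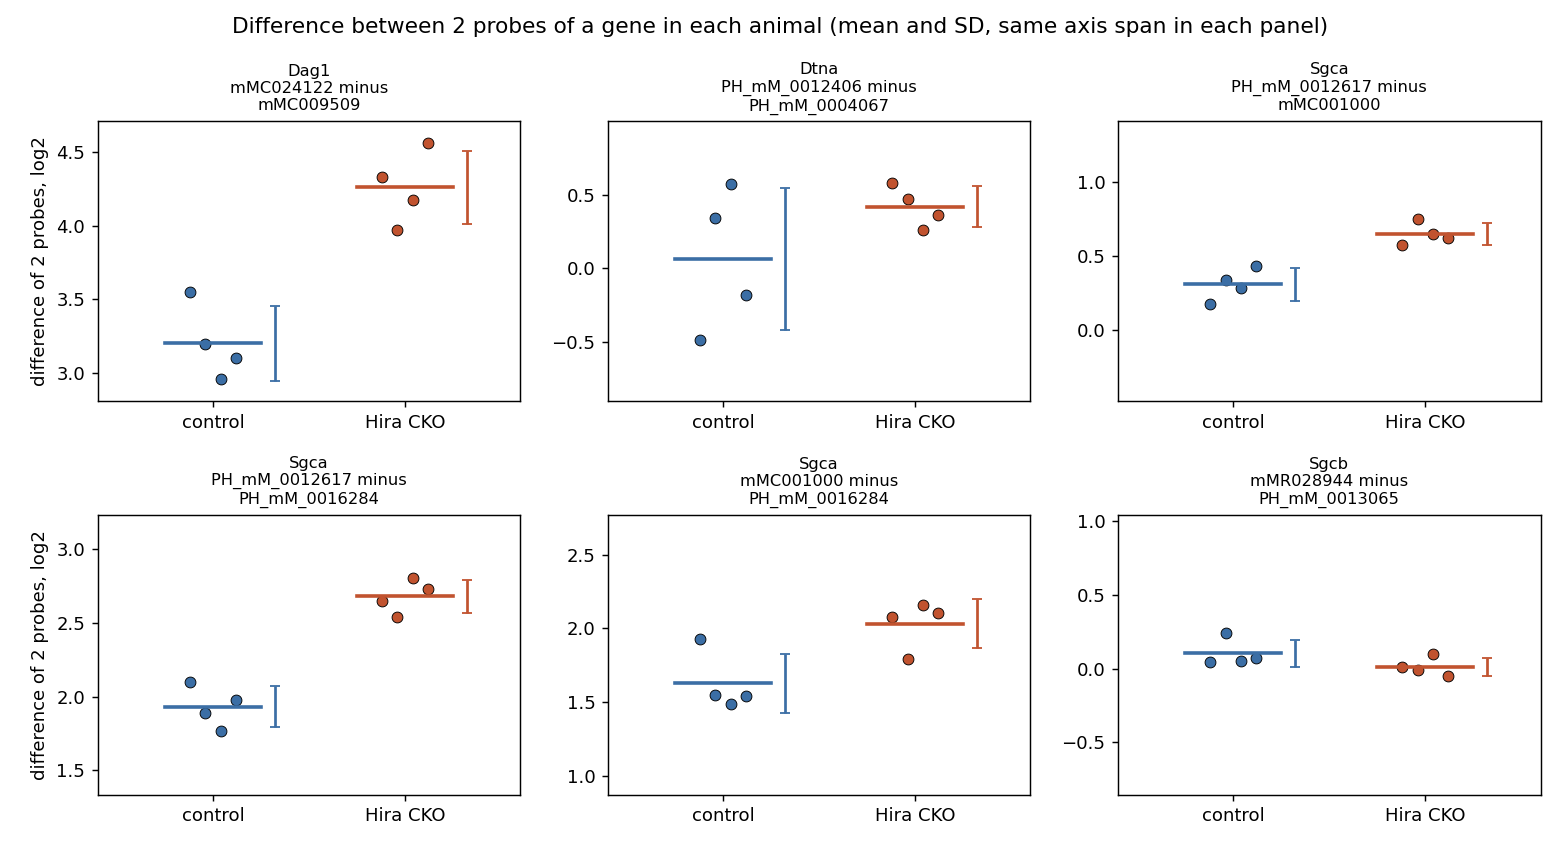
Log2 difference of 2 probes of the same gene in each mouse, with the group mean as a line and its SD as a bar, 4 mice per group. All panels span the same range, and the Dag1 pair shifted most, from a mean of 3.20 in controls to 4.26 in Hira CKO.

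Dystrophin itself was read by 1 probe. Dmd measured 4966, 3318, 3764 and 4184 in controls and 5072, 4443, 6150 and 4144 in Hira CKO. Hira CKO mouse 3 was highest and Hira CKO mouse 4 lay below 2 controls, so the groups overlapped. The difference of 0.28 log2 (SE 0.15, limma adjusted p 0.209, exact permutation p 0.200) did not pass. Its 95% interval of −0.05 to 0.61 log2 reaches from a slightly lower level to one clearly higher.

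Utrn measured 3036, 2991, 2781 and 3937 in controls and 2816, 2495, 2360 and 2585 in Hira CKO. Control mouse 4 was the highest, and Hira CKO mouse 1 lay above control mouse 3. The difference was −0.30 log2 (SE 0.11, 95% interval −0.55 to −0.05, limma adjusted p 0.0834), and −0.20 log2 without control mouse 4. With all 24 arrays and the mouse as a random block it passed (adjusted p 0.00559). That fit shares a single correlation between arrays of a mouse over all probes. At Utrn the median SD of 3 arrays was 0.050 log2 and the SD of the control mice 0.22 log2. Repeat arrays can thus count partly as extra mice there, and the main fit over mouse means is the one relied on. The per-mouse log2 difference of Utrn over Dmd was −0.34 ± 0.28 in controls and −0.92 ± 0.30 in Hira CKO (SD, n = 4 mice each). It was lower by 0.58 log2 with overlap between the groups (difference −0.58, exact two-sided permutation p 0.0571). Without 1 mouse at a time the difference ranged from −0.70 without control mouse 1 (exact permutation p 0.0286) to −0.43 without Hira CKO mouse 3 (exact permutation p 0.0857). That higher p of 0.0857 was found in 6 of the 8 cases.

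Utrophin is also made in vessel walls and nerve, and markers of those cells are given beside it. Of 8 endothelial markers 4 were called lower (Pecam1, Kdr, Egfl7 and Emcn) and 1 higher (Eng), with a median change of −0.27 log2. Over all named genes 10.3% were called lower and 11.0% higher. Pecam1 did not pass in 6 of 8 fits without a mouse, and its other probes were not called (limma adjusted p 0.253 and 0.157). The summed intensity of the 8 endothelial markers was 52362 to 66623 in controls and 39552 to 45465 in Hira CKO, with no overlap. A sum weighs bright probes most, and Egfl7, at a mean of 30882 in controls and 19234 in Hira CKO, made up the largest part of this one. Of 6 smooth muscle and pericyte markers measured 2 were called lower (Rgs5 and Smtn) and 0 higher, with a median of −0.20 log2. Their sums, made mostly of Acta2 and Smtn, were 39858 to 51331 and 31471 to 38471, again without overlap. Of 6 Schwann cell markers 0 were called, with sums of 19893 to 39691 and 25652 to 28998. No list had a marker with a mean at or below 0. The part of these cells in the Utrn and Dag1 values was not tested. Of 6 measured genes of regenerating or denervated fibres, where utrophin is known to spread along the fibre, 1 was called higher and 2 lower. Runx1, a transcription factor gene raised by denervation, rose by 0.32 log2 at its brighter probe, which passed in only 1 of 8 fits without a mouse, and by 0.63 log2 at the other. Chrng, the fetal acetylcholine receptor subunit, fell by 0.68 log2, and Actc1, cardiac actin, fell by 2.21 log2.

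By their pattern over the 8 mice, the genes most like Dmd were Vps13c, St6galnac2, Map2k3, Birc5 and Ddx56. The measure was the root-mean-square difference of log2 values centred on each probe's mean, which was 0.058 for Vps13c, 0.067 for St6galnac2, 0.079 for Map2k3, 0.082 for Birc5 and 0.083 for Ddx56. The median over the 17105 named probes compared was 0.302. The 5 were picked as the smallest of so many values over 8 mice, so low values follow partly from the choice itself. Whether they are smaller than such a choice would give was not tested. None of the 5 was called, and no other member was among them.

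The inner members tie signalling proteins to dystrophin. β1-Syntrophin is an adaptor that docks channels and enzymes. Sntb1 measured 770, 1241, 523 and 1064 in controls and 1252, 1612, 1113 and 1263 in Hira CKO. Control mouse 2 lay above Hira CKO mouse 3, so the groups overlapped, and controls spread more than 2-fold. The difference of 0.62 log2 (SE 0.25, limma adjusted p 0.109) was the largest positive value of the 13 probes, with a 95% interval of 0.06 to 1.19. Without control mouse 2 it was 0.81 log2 and passed (adjusted p 0.0482), and without control mouse 3 it was 0.37 log2.

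α-Dystrobrevin binds dystrophin and syntrophin and is known to steady the neuromuscular junction. Dtna probe PH_mM_0004067 measured 5082, 3646, 3764 and 4546 in controls and 2842, 3049, 3356 and 3644 in Hira CKO. The groups just missed overlapping, since the lowest control and the highest Hira CKO mouse differed by 2 units of intensity. The change was −0.40 log2 (SE 0.12, limma adjusted p 0.0455). When mice were dropped in turn, the call held only without control mouse 2 or Hira CKO mouse 4, and the adjusted p reached 0.118. It was also lost with a trended variance (adjusted p 0.0503). Dtna probe PH_mM_0012406 measured 3583, 4632, 5595 and 4011 in controls and 4202, 4238, 4029 and 4712 in Hira CKO. The Hira CKO mice lay within the range of the controls. The difference was −0.04 log2 (95% interval −0.32 to 0.25, limma adjusted p 0.860). The difference of the 2 Dtna probes shifted by 0.36 log2, with overlap (exact permutation p 0.257).

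Other genes of the complex and its surroundings were counted at the brightest probe of each gene, on lists chosen by role. Of 14 further complex genes 11 were measured, of which 2 were called higher and 1 lower (11.0% and 10.3% of all named genes). Their median change was 0.08 log2 (0.01 log2 over all named genes). Sntb2, the β2-syntrophin gene, rose by 0.57 log2, from 238 ± 39.5 to 366 ± 64.2 (SD, n = 4; limma adjusted p 0.0136). Dtnb, the β-dystrobrevin gene, rose by 0.35 log2, from 1424 ± 130 to 1810 ± 79.8 (limma adjusted p 0.0147). Both are relatives of members, and both kept their call in all 8 fits that left out 1 mouse. Cav3, the muscle caveolin, fell by 0.89 log2. Sspn (sarcospan) differed by −0.16 log2, Sgce (ε-sarcoglycan) by −0.19 log2 and Sgcz (ζ-sarcoglycan) by 0.08 log2, and none of these 3 passed.

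Dystroglycan binds laminin only after a chain of enzymes has built its sugar. Of 17 such enzymes 12 were measured, with 1 called higher and 1 lower (11.0% and 10.3% of all named genes). Their median change was 0.06 log2. Rxylt1, which adds xylose to that chain, fell by 0.96 log2, from 2359 ± 329 to 1205 ± 75.3 (SD, n = 4; limma adjusted p 0.000304). Dpm1, of the dolichol-phosphate-mannose synthase, rose by 0.29 log2, which did not pass in 6 of 8 fits without a mouse. Of 11 matrix ligands, all measured, the median change was −0.07 log2. Of them 0 were called higher and 3 lower (11.0% and 10.3% of all named genes). These were the laminin chains Lama5 (−1.03 log2, limma adjusted p 0.00167) and Lama4 (−0.84, limma adjusted p 0.000418), and perlecan, Hspg2 (−0.40, limma adjusted p 0.0112). Lama2, the laminin chain of the muscle fibre's basement membrane, differed by 0.24 log2 (limma adjusted p 0.311). Laminin α4 and α5 chains are also made by vessels, whose markers are given above, and their part was not tested.

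The α7β1 integrin is the other laminin receptor of the fibre. Of 12 genes of that adhesion complex, all measured, 1 was called higher and 3 lower (11.0% and 10.3% of all named genes). The median change of the 12 genes was −0.24 log2. Parvb, which links integrin-linked kinase to actin, fell by 0.61 log2, Tln1, which joins integrin to actin, by 0.57 log2, and Fermt2, a kindlin that activates integrin, by 0.51 log2. Each kept its call in all 8 fits that left out 1 mouse. Lims2 rose by 0.35 log2 at an intensity of 13.1 to 20.8, near the pseudocount, and did not pass in 6 of 8 such fits. The integrin gene Itga7 differed by −0.39 log2 (limma adjusted p 0.0837). Over those fits the count of lower genes in this list ranged from 3 to 6. Of 15 cytoskeletal partners of dystrophin 11 were measured, with a median of −0.0021 log2. Of them 0 were called higher and 2 lower (11.0% and 10.3% of all named genes). These were Flnc, the muscle filamin (−0.48 log2), and Sptbn1, a spectrin (−0.27 log2), which did not pass in 6 and 7 of 8 such fits.

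**Figure D4:**
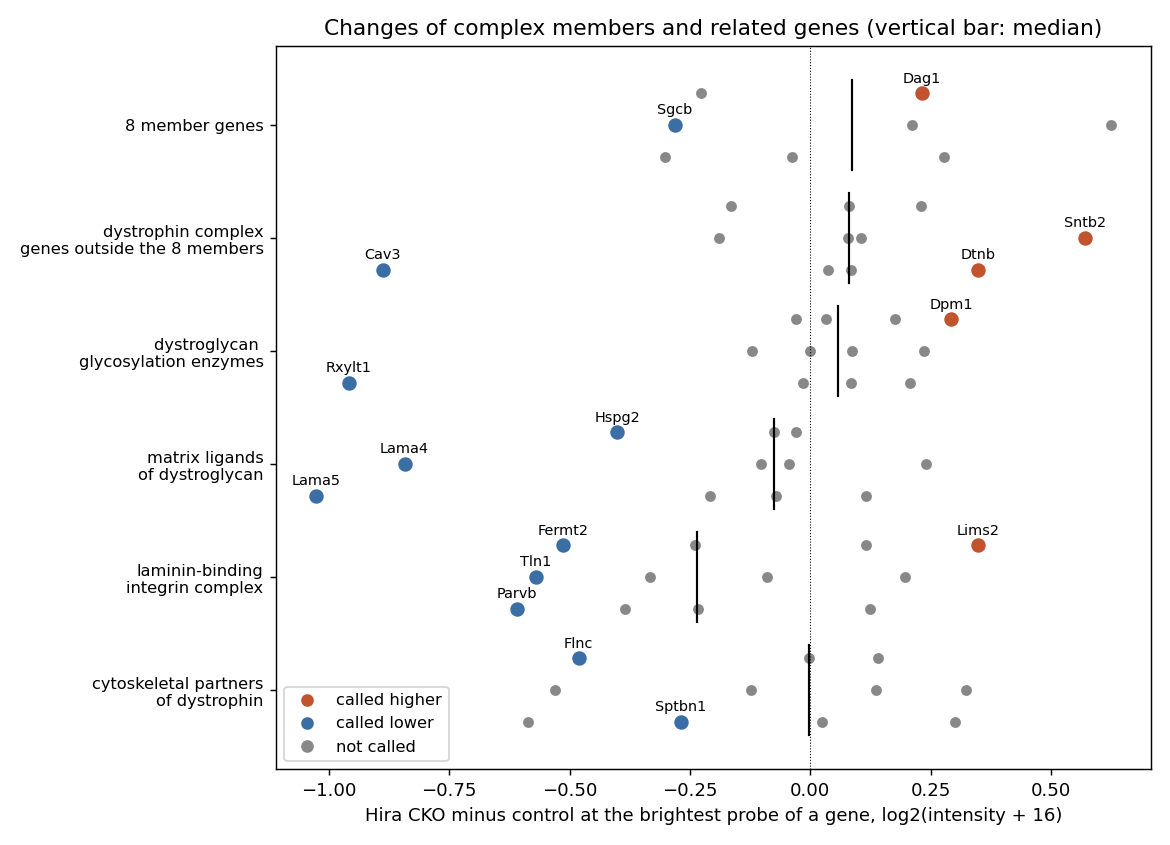
Change at the brightest probe of each gene, Hira CKO minus control in log2(intensity + 16), for the 8 members and 5 lists of related genes; called genes are coloured and named, and vertical bars are medians. Most genes lie near 0, with Lama5, Rxylt1, Cav3 and Lama4 the lowest of those shown.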

How the data were processed

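Total RNA extracted with Trizol was labelled with Cy5 (5 micrograms) and measured on 1-colour arrays, per the labels' protocols. The authors deposited linear intensity values that were already background-subtracted and normalized, as judged from the table: 50 values were at or below 0, array medians were 431.5 to 433.5, and the highest value was the same on all 24 arrays. The sources used here name neither software nor genome build. Slides and scan dates were not labelled either, so a batch of arrays cannot be told apart from the genotype. The table has no detection calls, and precision is limited by the number of mice and arrays. Nothing in the labels says whether mice shared a litter.

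Probes were named by platform annotation (20377 with 1 symbol, 6046 unnamed), updated through RefSeq names (GRCm38.p6). The update left the same 13 member probes. Deposited values under 0 were raised to 0, log2(intensity + 16) was computed and the 3 arrays per mouse were averaged. All 26423 probes were fitted with limma 3.58.1 in R 4.3.3 (lmFit, eBayes), with Benjamini-Hochberg adjustment. Single differences had an exact two-sided permutation test over 70 assignments. The fit was tested on simulated data. Intensities are means ± SD of 4 mice. Members and lists were chosen with earlier results of these data known. Every member probe is reported, with up to 4 called genes of each related list and the 5 genes most like Dmd among named probes with a mean of at least 100. Lama2, Sspn, Sgce, Sgcz and Itga7 were named for their roles after their values were seen. Figures used matplotlib 3.10.9.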

Additional observations from a re-analysis of the deposited data

How the results depend on the processing

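Of the 13 member probes, 12 kept their sign in all alternatives. The exception, Dtna probe PH_mM_0012406, was −0.04 log2 in the main analysis, 0.042 with only array 3 of each mouse and 0.077 without control mouse 3 (range −0.14 to 0.077 when 1 mouse was left out). The count of probes called higher, 1 in the main analysis, was 0 with a pseudocount of 1, with the median of 3 arrays, with only array 1, 2 or 3, and at an adjusted p of 0.01. Leaving out 1 mouse gave 0 to 1. The count called lower, 5 in the main analysis, was 8 with all 24 arrays and the mouse as a random block, 8 with the array repeat number as a replicate block, 3 with only array 1, 2 with only array 2, 3 with only array 3, and 3 at an adjusted p of 0.01. Leaving out 1 mouse gave 3 to 4. Over all probes, the random block gave 3605 higher and 3649 lower calls against 2783 and 2649. Both fits of all 24 arrays shared a single correlation between arrays of a mouse over all probes. A probe whose mice differ much more than its repeat arrays can therefore be called too readily in them. Genes with a probe called lower numbered 4, and 1 with the brightest probe only. The Utrn over Dmd difference ranged from −0.70 to −0.43 without 1 mouse. With the mouse number as a replicate block 1 probe was higher (Sntb1, in place of Dag1 probe mMC024122) and 4 lower (without Dtna probe PH_mM_0004067). Same-numbered mice deviated together at correlations of −0.06 to 0.30. Differently numbered mice were not set beside them, so whether the numbers pair the mice was not settled. Sgcd has no value without the 30% dimmest probes. Dim probes such as Sgcd are limited by signal over background.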

Other observations

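Several related genes had a second probe that gave another answer. Aqp4, the water channel that syntrophin anchors at the fibre membrane, rose by 0.52 log2 at its dimmer probe, from 3646 ± 532 to 5215 ± 428 (SD, n = 4; limma adjusted p 0.00859), and differed by 0.11 log2 at its brighter probe, which did not pass (limma adjusted p 0.608). Nid1, a basement membrane linker, fell by 0.38 log2 at a probe of 179 ± 8.66 in controls and 134 ± 6.31 in Hira CKO, and differed by −0.03 log2 at its bright probe. Of 6 macrophage markers measured, 1 was called lower and 1 higher (10.3% and 11.0% of all named genes). Cx3cr1, a chemokine receptor, fell by 1.61 log2, and Itgam, an integrin subunit, rose by 0.40 log2 (limma adjusted p 0.0373). The summed intensity of the 6 overlapped between the groups (4518 to 7044 in controls, 4417 to 6453 in Hira CKO).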
